A study of Mus musculus with 76 samples.

Results

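Gamma irradiation was compared with sham exposure in the right ventricle of male mice on the normal diet (ND). Membership followed the sample labels: field Gamma or Sham, male sex and normal diet, with library titles M16 to M20 and M36 to M40 for gamma and M6 to M10 and M26 to M30 for sham. This gave 20 of the 76 samples of the series, 10 gamma and 10 sham. The gamma animals were C57Bl/6J males on normal chow given 100 cGy of gamma rays, and the sham animals were C57Bl/6J males on the same chow at 0 cGy. The libraries fall into 2 title blocks, M1-M20 and M21-M40, with 5 gamma and 5 sham libraries in each. The study's sample table gives the sham animals an age at collection of 530 days in M1-M20 and 750 days in M21-M40. The ages of the gamma animals and the time from exposure to collection are not given in the sources used here, so age and exposure cannot be told apart. The other 56 samples are females, males on a Western diet (WD), males exposed to a mixed field and 1 library whose labels give conflicting values for its group.

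Gamma rays ionize water and DNA along their path, and the resulting double-strand breaks activate the kinases that stabilize p53. p53 then induces genes such as *Cdkn1a*, a cell cycle inhibitor, and *Mdm2*, the ubiquitin ligase that limits p53 itself. In the heart, radiation is best known for late injury of small vessels and for fibrosis. The right ventricle pumps blood to the lungs at low pressure, and its mass is mostly cardiomyocytes while endothelial cells and fibroblasts contribute many of its nuclei.

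Messenger RNA was selected by its poly-A tail, and reads were counted near the 3′ end of each gene. Total counts ran from 12580172 to 19058680 per library, with a median of 14819293. Levels are given in CPM, a gene's counts relative to the total of its library after a correction for composition, and differences as log2 fold changes of gamma over sham. *Ddx3y*, a Y-linked helicase, lay between 45.6 and 102 CPM and *Xist*, the RNA of the inactive X, stayed at or below 0.581 CPM, as the male label requires. The ventricular light chain *Myl2* was abundant in every library (3912 to 18700 CPM). The 10 atrial genes on the list summed to between 105 and 15295 CPM, with the 2 highest sums in sham libraries M26 and M27. The 9 red blood cell genes summed to between 134 and 1032 CPM in sham and between 131 and 3418 CPM in gamma, with the highest sum in M39. The 17 T and B lymphocyte genes summed to 29.5 to 96.0 CPM in sham and 25.3 to 256 CPM in gamma. No pair of libraries agreed within sampling noise, the lowest mean chi-square per gene being 7.42 over 190 pairs. Pairs among gamma libraries M16 to M20 ran from 7.42 to 15.9, and pairs among sham libraries M6 to M10 from 15.6 to 75.4. The median over all pairs was 142. The study's methods list as many male sham mice on the normal diet as there are sham libraries. For the gamma libraries the sources used here do not say that each came from a separate animal, so the spread within that group may be technical.

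The library names given in the labels carry the prefix WG in all 10 gamma libraries and the prefix W in 9 of 10 sham libraries, while sham library M29 carries WG. The labels do not explain the prefixes, and M29 was kept in the group its labels state. Without M29 the comparison over both blocks called 3468 genes, 0 with block and RIN, 0 within M21-M40 and 3630 for the block interaction.

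RNA integrity differed between the groups. The RNA integrity number (RIN), an electrophoretic score of how intact the ribosomal RNA is, averaged 8.18 ± 0.748 (SD, n = 10) in gamma and 5.20 ± 1.26 (SD, n = 10) in sham libraries, a difference of 2.98 (two-sided permutation test, p = 6.0e-05). Within M1-M20 the difference was 3.28 (exact permutation test, two-sided, p = 0.00794, n = 5 and 5), and the lowest gamma RIN of 7.8 lay above the highest sham RIN of 6.7. Within M21-M40 it was 2.68 (exact permutation test, two-sided, p = 0.0159, n = 5 and 5), and the groups overlapped, with gamma from 6.6 to 8.6 and sham from 3.6 to 7.3. RIN alone accounted for an R squared of 0.696 of the group label. Values with title block and RIN in the model, or within each block, are therefore given for the gene lists and for the genes described in most detail.

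Without covariates, most ribosomal protein and respiratory chain genes were lower in gamma libraries, and 15 of 33 matrix genes were higher. Of 11343 genes tested, 3656 (32.2%) passed an adjusted p of 0.05, of which 1785 (15.7%) were higher and 1871 (16.5%) lower in gamma. The median over all genes was 0.08 on the log2 scale. With title block alone in the model, 5299 genes (46.7%) passed, 2910 (25.7%) higher and 2389 (21.1%) lower, so the larger direction turned. With title block and RIN in the model 0 genes passed (0%), 492 had an unadjusted p under 0.05, and the lowest adjusted p was 0.543 (DESeq2 called 1 gene, *Lnx2*, in the same design). The covariates widened the median standard error of a log2 fold change from 0.16 to 0.23 and narrowed the median absolute change from 0.29 to 0.17.

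Of 78 cytosolic ribosomal protein genes tested, which encode the structural proteins of the ribosome, 77 fell and 0 rose, with a median of -1.01. Over all genes 16.5% were lower. *Rpl41*, the smallest ribosomal protein, was at 367, 413, 478, 751 and 806 CPM in the M1-M20 sham libraries and at 177, 180, 184, 199 and 214 CPM in the gamma libraries of that block. In M21-M40 it was at 345, 582, 1044, 1284 and 1688 CPM in sham and between 310 and 339 CPM in gamma. All 10 gamma libraries lay below every sham library, and the log2 fold change was -1.60 ± 0.27 (SE; adjusted p = 3.1e-04). The lowest sham value was that of M27, the sham library with the highest RIN, at 7.3. *Rpl37a* (-1.44), *Rplp1* (-1.40) and *Rps15* (-1.37) followed. In the model with block and RIN the list had a median of -0.18 with 0 of 78 called, and *Rpl41* stood at -0.23 ± 0.26 (adjusted p = 0.938). Of the 77 called genes, 75 were also associated with RIN in male libraries outside the comparison.

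**Figure D1:**
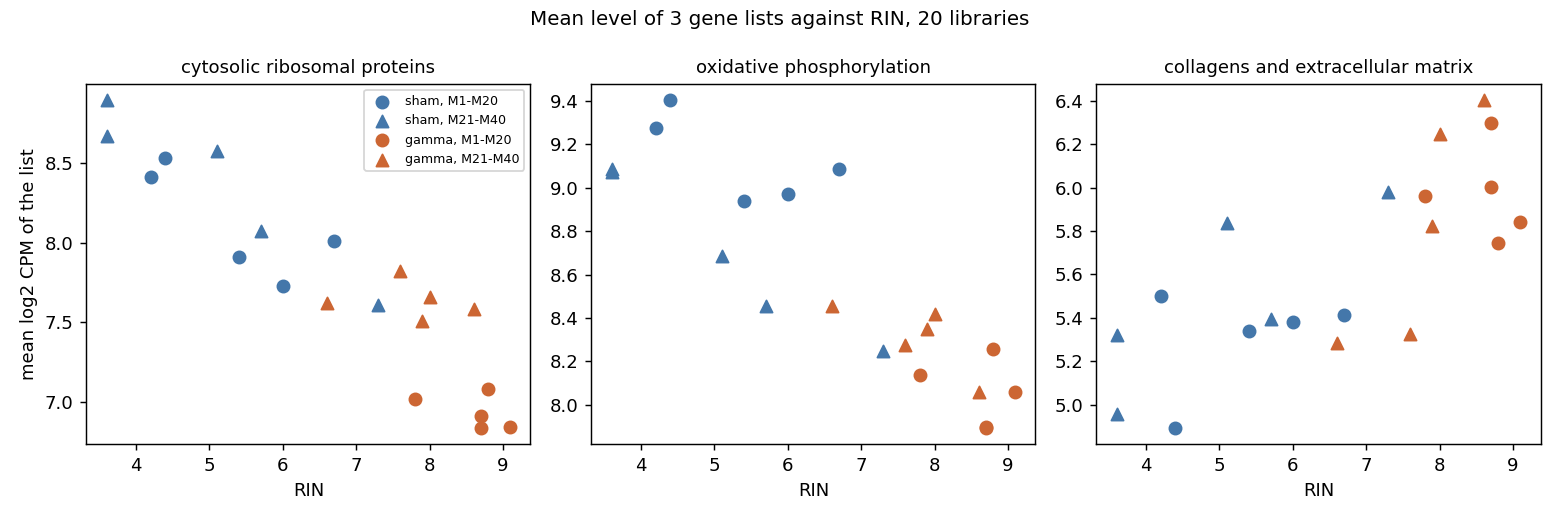
Mean log2 CPM of 3 gene lists (y axis) against RIN (x axis) in the 20 libraries; colour gives the group and marker shape the title block. Ribosomal protein and oxidative phosphorylation means fall and matrix means rise along RIN, and gamma libraries take the RIN range from 6.6 to 9.1 while sham libraries take 3.6 to 7.3.

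Genes of oxidative phosphorylation, the respiratory chain and ATP synthase, fell in the same comparison. Of 81 tested, 65 fell and 0 rose (median -0.84), against 16.5% lower over all genes. *Uqcr10*, a small subunit of complex III, had a median of 564 CPM in sham (303 to 994) and 269 CPM in gamma (194 to 376), a change of -1.21 ± 0.19 (SE; adjusted p = 2.3e-04). *Ndufa2* of complex I changed by -1.21 and *Atp5f1e* of ATP synthase by -1.21. Of 11 mitochondrially encoded genes 7 fell and 1 rose (median -0.44), with *mt-Nd1* at -0.72. In the model with block and RIN over both blocks the nuclear list had a median of -0.13 with 0 of 81 called. The mitochondrially encoded median turned to 0.06 in that model, with 0 of 11 called. Within M1-M20 with RIN in the model 19 of 81 genes of the nuclear list were lower. Of 34 fatty acid oxidation genes 3 rose and 5 fell (median -0.15), a smaller called share than the 32.2% over all genes. *Ppara*, the receptor that induces them, rose from a median of 3.78 to 8.09 CPM (1.19), *Cpt1b*, which carries fatty acids into mitochondria, rose by 1.11, and *Fabp3*, the cytosolic fatty acid binding protein, fell (-0.81). With block and RIN the list median was 0.01 with 0 called, and *Ppara* stood at 0.17, *Cpt1b* at 0.56 and *Fabp3* at -0.09.

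Contractile genes moved in both directions. Among 27 sarcomere genes 10 fell and 2 rose, against 16.5% lower and 15.7% higher over all genes. The regulatory and essential light chains *Myl2* (-0.84) and *Myl3* (-0.91), the inhibitory troponin *Tnni3* (-0.81) and the Z-disc protein *Myoz2* (-0.87) fell. The heavy chains *Myh6* (0.69) and *Myh7* (0.69) rose. *Myh6* stood at -0.18 with RIN in the model, and the *Myh7* call was lost in 6 of 20 fits that left out 1 library (M8, M9, M10, M36, M37 and M40). *Tnni3* was at a median of 8015 CPM in sham and 4482 CPM in gamma, and 6 of 10 gamma libraries lay below every sham library. The signs of *Myl2* (0.33), *Myl3* (0.21) and *Myoz2* (0.01) turned with block and RIN, and the list median became 0.11. The proteasome list fell in 20 of 31 genes, such as *Psmb5* (-0.74), and 1 gene rose, *Psmd1* (1.25). Among 31 antioxidant genes 12 fell, including *Gpx4*, which reduces lipid peroxides (-1.07), *Gstm5* (-0.82), *Prdx2* (-0.79) and *Gpx3* (-1.15), and 3 rose, against the same shares. Without M26 *Gpx3* stood at -0.77 (adjusted p = 0.0763), without M28 at -1.01 (adjusted p = 0.0530) and without both M26 and M27 at -0.62 (adjusted p = 0.143). The proteasome median was -0.41 without covariates, -0.21 with block and RIN, -0.73 within M1-M20 and -0.15 within M21-M40, and the antioxidant median was -0.23, -0.17, -0.42 and -0.10 in the same order.

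Of 33 collagen and matrix genes 15 rose and 0 fell (median 0.37), against 15.7% higher over all genes. In the same fit 6 of 17 fibroblast genes rose and 0 fell (median 0.21), and with block and RIN their median was -0.11 with 0 called. The part of fibroblast numbers in the matrix values was not tested. *Timp3*, an inhibitor of matrix proteases, was at 8.12 to 31.2 CPM in the M1-M20 sham libraries and 88.9 to 167 CPM in the gamma libraries of that block, and at 5.75 to 73.4 and 20.5 to 80.0 CPM in M21-M40. The groups did not overlap in the first block and overlapped in the second. Its change over 20 libraries was 1.97 ± 0.40 (SE; adjusted p = 9.1e-04). The gelatinase *Mmp2* (1.51), *Thbs1* (1.52), *Col1a1* (0.78) and *Col3a1* (0.67) also rose, as did 8 of 28 genes of TGF-beta signalling against the same 15.7%, among them the inhibitor *Smad7* (0.85) and the receptor *Tgfbr2* (0.67). With block and RIN *Timp3* stood at 0.13 ± 0.51 and *Mmp2* at -0.01 ± 0.28, and the matrix median was -0.09. The median of the TGF-beta list turned from 0.28 to -0.12 with block and RIN, with 0 of 28 called, *Smad7* at 0.0022 and *Tgfbr2* at 0.12.

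Of 25 endothelial genes 6 rose and 0 fell (median 0.23), against 15.7% higher over all genes. Within M1-M20 6 rose and 11 fell (median -0.07), a called share close to the 66.0% over all genes in that fit. Within M21-M40 the median was 0.29 and with block and RIN 0.03, with 0 called in either. *Kdr*, the main receptor for vascular endothelial growth factor, was at 127 to 208 CPM in sham and 220 to 322 CPM in gamma, so the groups did not overlap. Its change was 0.69 ± 0.11 (SE; adjusted p = 2.4e-04), and 0.52 ± 0.15 with block and RIN (unadjusted p = 0.00238, adjusted p = 0.936). *Cdh5*, the endothelial cadherin, was at 112 to 219 CPM in sham and 248 to 350 CPM in gamma (0.67), and *Tek* rose by 0.48. In a fit of all 38 male libraries with block and RIN, *Kdr* stood at -0.07 and *Cdh5* at -0.0023. In the 18 male libraries outside the comparison both genes were higher at higher RIN. In tissue RNA, a difference in the number of cells of a type and a difference in RNA per cell cannot be told apart.

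Among 33 p53 targets tested, 3 rose and 8 fell, a called share close to the 32.2% over all genes, with a median of -0.01. *Cdkn1a* ran from 16.9 to 49.9 CPM in sham (median 29.7) and from 22.2 to 54.3 CPM in gamma (median 24.8), a difference of 0.11 ± 0.21 (SE; adjusted p = 0.722). The groups overlapped, and in M1-M20 the gamma libraries lay within 22.2 to 23.8 CPM. *Cdkn1a* stood at -0.20 within M1-M20, 0.22 within M21-M40 and 0.33 with block and RIN, and at -0.0065 without M38, with none of these called. *Mdm2* rose by 0.24 ± 0.09 (adjusted p = 0.0464), with 46.0 to 73.3 CPM in sham and 57.0 to 72.0 CPM in gamma, and the call was lost in 16 of 20 fits that left out 1 library (0.21 to 0.31). *Bax*, a pro-apoptotic channel protein, stood at -0.47 (adjusted p = 0.12). It was called without M40 (-0.61, adjusted p = 0.0386) and within M1-M20 (-1.14, adjusted p = 4.3e-05), and stood at -0.16 within M21-M40 and 0.05 with block and RIN. *Ccng1* stood at -0.01 and *Zmat3* at 0.23. *Phlda3*, an inhibitor of Akt, fell (-0.43, adjusted p = 0.0465), a call lost in 14 of those 20 fits. *Rps27l* fell most among the p53 targets (-0.95) and is itself a paralogue of a ribosomal protein. The death receptor *Tnfrsf10b* rose (0.63), a call lost in 12 of the 20 fits. *Eda2r* was too low for the count filter. It ranged from 0.640 to 3.40 CPM in sham and 3.10 to 5.30 CPM in gamma, with 7 gamma libraries above every sham library, and with the looser filterByExpr filter it rose by 0.89 ± 0.27 (SE; adjusted p = 0.0157) and stood at 0.29 ± 0.40 (adjusted p = 0.962) with block and RIN.

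Of 24 genes of double-strand break repair 6 rose and 5 fell, against 15.7% higher and 16.5% lower over all genes. Of these 11 called genes, 10 were also associated with RIN in male libraries outside the comparison. *Xrcc3*, a recombination repair protein, rose by 0.98 and the damage mediator *Mdc1* by 0.67, while the end-joining factor *Nhej1* (-0.66) and *Shld1* (-0.88) fell. Of 14 base excision repair genes 2 rose, such as the ligase *Lig3* (0.63), and 3 fell, such as the polymerase *Polb* (-0.45), a called share close to the 32.2% over all genes. The sign of *Lig3* turned with block and RIN. Among 23 senescence genes 4 rose, including the nuclear lamin *Lmnb1* (0.80), *Mmp2* and the chemokine *Cxcl12* (0.53), and 0 fell, a share of higher genes close to the 15.7% over all genes. The list gives its members no direction, so a higher member, *Lmnb1* among them, does not stand for more senescence. None of these lists held a called gene with block and RIN, and their medians were then -0.01 for p53 targets, 0.00 for double-strand break repair, -0.02 for base excision repair and -0.21 for senescence.

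The counts of higher genes in the following lists stand against 15.7% over all genes. In the macrophage list 5 of 16 genes rose, such as the scavenger receptor *Cd163* (0.82) and *Ccr2* (0.84), and 1 gene fell, the complement subunit *C1qa* (-0.51). The *Ccr2* call was lost in 7 and the *C1qa* call in 8 of the 20 fits that left out 1 library. The summed level of the 20 macrophage genes was 581 to 980 CPM in sham and 490 to 1188 CPM in gamma. Of 8 complement genes 4 rose, with *C7* at a median of 6.82 CPM in sham and 22.7 CPM in gamma (1.60). Immediate early genes rose in 7 of 21, including *Fosl2* (1.10) and *Klf4* (1.00), and 1 fell. Among 17 glucocorticoid-induced genes 3 rose, including *Errfi1* (1.07) and *Sgk1* (0.71), and 1 fell, the metallothionein *Mt1* (-1.11), again close to the share of higher genes overall. With block and RIN the medians were -0.12 for macrophage, 0.21 for complement, 0.18 for immediate early and 0.15 for glucocorticoid-induced genes, with 0 called. Within M1-M20 they were 0.25, 0.76, 0.20 and -0.02, and within M21-M40 0.14, 0.25, 0.32 and 0.20, in the same order. The clock output list had 0 of 11 genes called, with *Dbp* at -0.35 and *Per1* at 0.34, and its median went from -0.02 to -0.30 with block and RIN. In the stretch and hypertrophy list 2 of 17 rose and 2 fell, fewer than the share over all genes, with a median of -0.03 and, with block and RIN, of -0.15. The natriuretic peptide *Nppb* fell by 1.71 on the log2 scale (adjusted p = 0.0327). Its highest value, 2304 CPM, was that of M26, the sham library with the highest atrial sum. Without M26 the change was -0.79 (adjusted p = 0.191), and the call was lost in 5 of the 20 fits that left out 1 library.

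**Figure D2:**
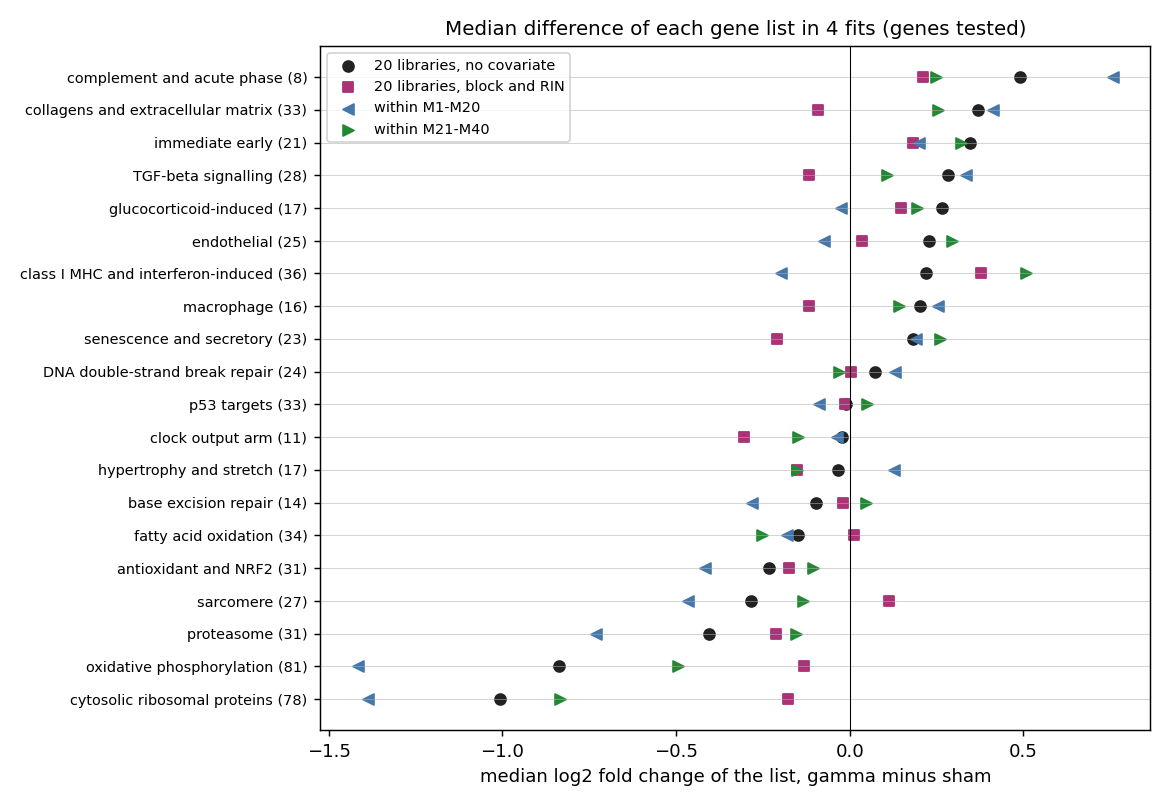
Median log2 fold change, gamma minus sham (x axis), of 20 gene lists (y axis, number of genes tested in brackets) in 4 fits. Ribosomal proteins move from -1.01 without covariates to -0.18 with block and RIN, and the class I list lies at -0.20 within M1-M20 and 0.51 within M21-M40.

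The RIN association of the called genes was measured in libraries outside the comparison. In the 18 male libraries on a Western diet or exposed to the mixed field, RIN was associated with 7321 of 11301 genes (64.8%) with condition and block in the model. In these libraries RIN went with the combination of condition and block. Every mixed field library of M1-M20 had a higher RIN than every mixed field library of M21-M40. The slope may therefore also carry effects of condition that differ between the blocks. Of the 3656 genes called between gamma and sham, 3606 were measured there. Of these, 2872 (79.6%) were RIN-associated, 2864 of them in the direction that higher RIN gives and 8 against it. Among 7425 genes not called, 4324 (58.2%) were RIN-associated. Across 11031 genes the gamma difference and the RIN slope correlated at r = 0.64 without covariates and r = 0.48 with block and RIN. In the fit of all 38 male libraries with block and RIN, which holds those 18 libraries too, the correlation was -0.52. With libraries of RIN 6 to 8 alone, 3 sham and 5 gamma, 0 of 11925 genes were called and 2490 had an unadjusted p under 0.05. Of these libraries 2 of 3 sham but 1 of 5 gamma were in M1-M20, so group and title block were not balanced there. Genes are not independent replicates, so these correlations carry no p.

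**Figure D3:**
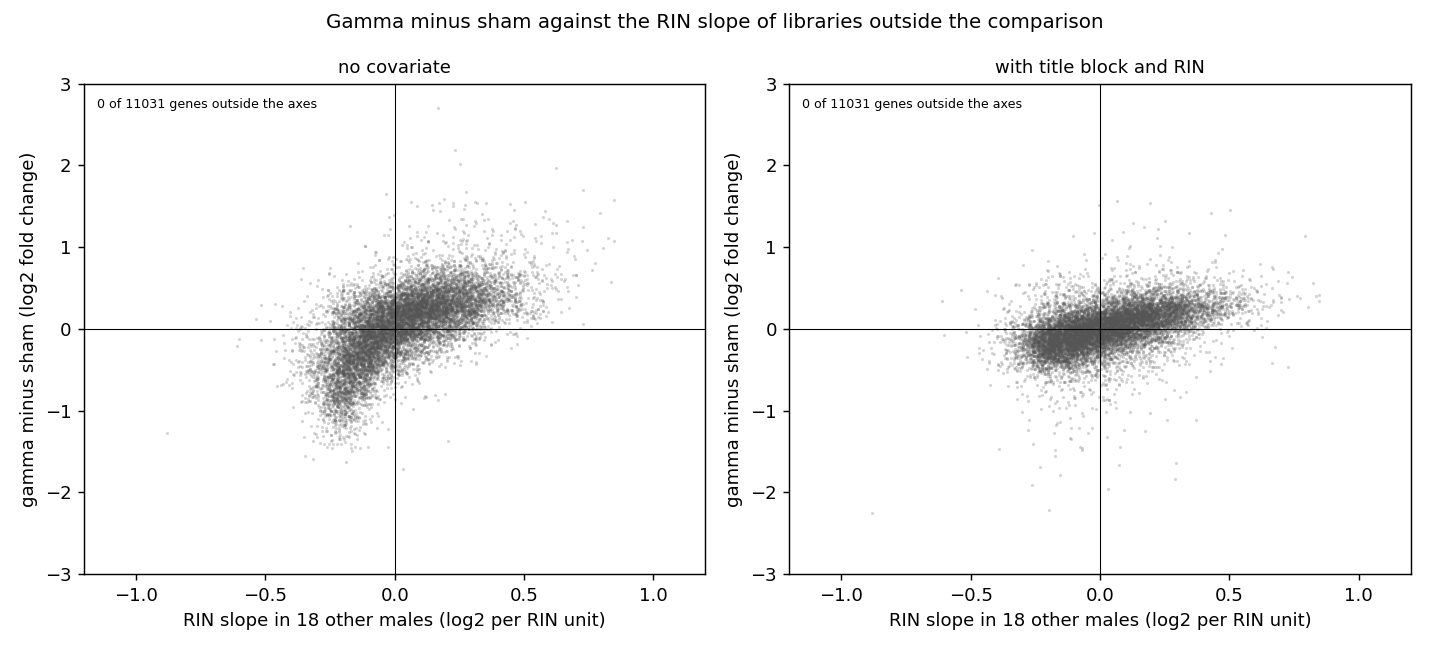
Gamma minus sham log2 fold change (y axis) against the RIN slope in 18 other male libraries (x axis, log2 per RIN unit), 1 point per gene for 11031 genes. The cloud rises to the right without covariates (r = 0.64) and is flatter with title block and RIN (r = 0.48).

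There remained 734 called genes with no RIN association in those libraries, 425 higher and 309 lower. The genes named here are those of largest change among them, a choice made after their values were seen. *Irs2*, an adaptor of the insulin receptor, was at 3.59 to 10.6 CPM in sham and 4.72 to 30.7 CPM in gamma (1.54). *Dbh*, which encodes an enzyme that makes noradrenaline, was at 5.53 to 23.4 CPM in sham and 2.37 to 6.76 CPM in gamma (-1.40), and 9 gamma libraries lay below every sham library. *Ptgds* (-1.45), *Stard10* (-1.24) and *Nppb* (-1.71) were lower, and without M26 and M27 *Stard10* stood at -0.64 (adjusted p = 0.0971). The call of *Ptgds* was lost without M9. In addition, *Pdha1*, a subunit of pyruvate dehydrogenase, was higher (1.64), but stood at -0.18 with RIN in the model and at 0.23 within M21-M40. The leukocyte genes *Ms4a6b* (1.56) and *Itgb7* (1.51) rested on 1 library, M36, in which *Itgb7* was at 58.3 CPM against 1.79 to 10.4 CPM in the other 19. Without M36 *Itgb7* stood at 0.56 (adjusted p = 0.0678) and *Ms4a6b* at 0.48 (adjusted p = 0.153). In the model with block and RIN 49 of the 734 had an unadjusted p under 0.05, and their median absolute change went from 0.50 to 0.15.

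By the lowest unadjusted p with block and RIN, 4 higher and 5 lower genes are described, none past the adjusted threshold. *Lnx2*, a ubiquitin ligase of the Numb pathway (chr5:146953465-147013707, GRCm39), was at 10.4 to 16.4 CPM in all 10 sham libraries and 20.3 to 26.5 CPM in all 10 gamma libraries. The groups did not overlap in either block. Its change was 0.67 ± 0.09 (SE; adjusted p = 1.8e-04) without covariates and 0.80 ± 0.16 (adjusted p = 0.543) with them, and DESeq2 gave it an adjusted p of 0.0206 with block and RIN. In the 18 other male libraries *Lnx2* rose with RIN by 0.18 per unit (adjusted p = 3.2e-04), and in the fit of all males it stood at 0.36 (adjusted p = 0.289). *Adh1*, an alcohol and retinol dehydrogenase (chr3:137966752-137996462, GRCm39), was at 14.04 to 26.5 CPM in sham and 7.18 to 15.8 CPM in gamma, with 9 gamma libraries below every sham library. It changed by -0.84 ± 0.15 (adjusted p = 4.1e-04) without covariates, -1.01 ± 0.24 (adjusted p = 0.936) with them, and -1.13 ± 0.20 (adjusted p = 0.0219) in the fit of all 38 male libraries, where it was the 1 gene called of 11031. Its RIN slope in the other males was 0.12 (adjusted p = 0.101). The interferon-induced GTPase *Iigp1* was at 19.8 to 42.6 CPM in sham and 35.4 to 140 CPM in gamma (1.25 without covariates and 1.29 with them). *Iffo2* (0.82) and *Prkcq*, a protein kinase C (1.14), were other higher genes with block and RIN. *Arl4d* (-0.79), the lipid phosphatase *Plpp2* (-1.11), the imprinted RNA *H19* (-1.40) and *Kazald1* (-0.87) were the other lower ones. Without covariates *Iffo2* stood at 0.84, *Arl4d* at -0.51 and *Plpp2* at -0.61, all called, and *Prkcq* at 0.38 (adjusted p = 0.169), *H19* at -0.67 (adjusted p = 0.063) and *Kazald1* at -0.25 (adjusted p = 0.288), not called. *H19* was called when M9, M10, M29 or M36 was left out (adjusted p from 0.0237 to 0.0497) and stood at -0.36 without M27, and *Kazald1* stood at -0.15 without M26 or without M27.

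**Figure D4:**
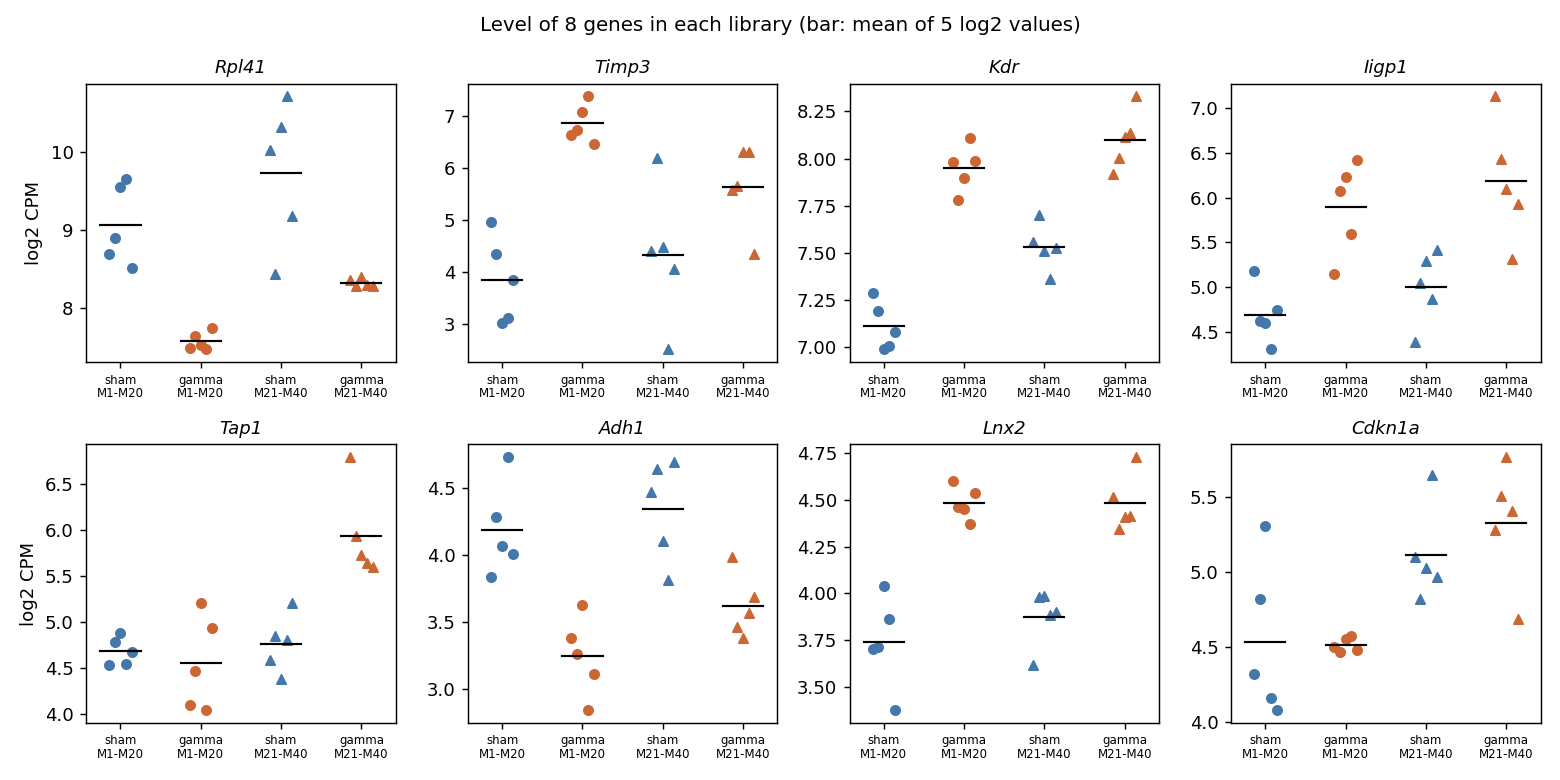
Level of 8 genes as log2 CPM (y axis) in each library, by group and title block (x axis); bars are means of 5 log2 values. *Lnx2* and *Kdr* separate gamma from sham libraries in both blocks, *Tap1* only in M21-M40, and *Cdkn1a* in neither.

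The 2 title blocks gave different counts. Within M1-M20, 7764 of 11755 genes (66.0%) were called, 3908 (33.2%) higher and 3856 (32.8%) lower, and with RIN in the model 580 (4.93%), 117 (0.995%) higher and 463 (3.94%) lower. In that fit, in which the RIN of gamma and sham libraries did not overlap, 19 of 81 oxidative phosphorylation genes were lower (median -0.84), as were 16 of 31 proteasome genes (median -0.75), 8 of 34 fatty acid oxidation genes (median -0.66) and 8 of 31 antioxidant genes (median -0.46), with 0 higher in these 4 lists. Of 79 ribosomal protein genes 0 were called there (median -0.55), and of 35 matrix genes 2 were higher and 0 lower (median 0.43). Within M21-M40, 0 of 11797 genes (0%) were called by edgeR, 2643 had an unadjusted p under 0.05, and DESeq2 called 881. Without M30 edgeR called 1193 there, and without M27 it called 1155. A separate test of the interaction called 2924 of 11343 genes (25.8%), or 3104 with RIN in the model and 3260 by DESeq2. Of the 2924, 2399 had the smaller absolute change in M21-M40 and 1772 had opposite signs in the blocks. Of 7586 genes called in M1-M20 and tested in M21-M40, 5321 (70.1%) had the same sign there, against 64.1% of all 11343 genes tested in both. The median absolute change over all genes tested was 0.42 in the first block and 0.24 in the second. Within gamma alone the 2 blocks differed in 7593 of 12121 genes (62.6%), or 5991 with RIN in the model, and within sham in 4126 of 11511 (35.8%). The blocks share no library, and across 11343 genes their changes correlated at r = 0.47. In M1-M20 the lowest p-values were those of *Zfp36l2*, which destabilizes AU-rich mRNAs (1.56), the mitochondrial ribosomal protein *Mrpl36* (-1.10) and the titin cap *Tcap* (-1.56). In M21-M40 *Spry4*, a feedback inhibitor of receptor tyrosine kinases, had the lowest p (1.06 ± 0.15, adjusted p = 0.0721), with 7.82 to 11.5 CPM in sham and 18.5 to 23.996 CPM in gamma, and *L1cam* stood at 1.16. *Strn3*, a phosphatase scaffold, had the lowest p for a difference between the blocks, at 1.43 in M1-M20 and -0.19 in M21-M40 (interaction -1.72 ± 0.18, adjusted p = 2.3e-05), and *Snrpc* went the other way (-1.24 and 0.36). Larger interactions were seen among red blood cell genes, such as *Hba-a1* (2.92 ± 0.92, adjusted p = 0.026), and the list had medians of -1.34 in M1-M20, where 5 of 6 fell, and 1.35 in M21-M40, where 0 of 5 were called. These values rested on M39 and M8. Without M39 the median in M21-M40 was 0.19, the *Hba-a1* interaction was 1.85 ± 0.77 (adjusted p = 0.0823), and *Hba-a1* over both blocks turned from 0.53 to -0.45. Without M8 the median in M1-M20 was -0.64 and the *Hba-a1* interaction 2.28 ± 0.88 (adjusted p = 0.0701).

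Genes of class I antigen presentation lay mostly above 0 in M21-M40 and on both sides of 0 in M1-M20. Of 36 class I MHC and interferon-induced genes, 33 were above 0 in M21-M40 (median 0.51) and 15 in M1-M20 (median -0.20), and 13 had an interaction past the threshold, all 13 more positive in M21-M40, against 25.8% with an interaction over all genes. Leaving out 1 library gave 10 to 15 such genes, all more positive in M21-M40. In M1-M20 7 rose and 14 fell, no larger a share than the 66.0% called over all genes there. In M21-M40 0 of 36 were called, or 15 without M30 and 10 without M27, all higher. Without M36 the M21-M40 median was 0.34, and with RIN in the model the M1-M20 median was -0.04 with 18 of 36 above 0. The 6 class II genes tested had medians of -0.48 in M1-M20 and 0.48 in M21-M40, and the summed lymphocyte genes reached 256 CPM in M36; their part in the class I values was not tested. *Psmb9*, an immunoproteasome subunit, was at 20.3 to 28.6 CPM in sham and 11.8 to 18.5 CPM in gamma in M1-M20 (-0.87), and at 17.9 to 26.8 and 28.97 to 55.9 CPM in M21-M40 (0.75). The peptide transporter *Tap1* was at 23.2 to 29.4 and 16.5 to 36.9 CPM in M1-M20 and at 20.8 to 36.8 and 48.4 to 111 CPM in M21-M40 (1.22, adjusted p = 0.0975). *B2m*, the class I light chain, stood at -0.56 (adjusted p = 0.00158) in M1-M20 and 0.59 (adjusted p = 0.109) in M21-M40. *H2-K1* stood at -0.33 (adjusted p = 0.0487) in M1-M20 and 0.80 (adjusted p = 0.103) in M21-M40. With 1 library left out, the M1-M20 call of *H2-K1* was kept only without M9 or without M18. Over all 20 libraries 7 of 36 genes of the list rose, close to the 15.7% over all genes, and 1 fell, and with block and RIN the median was 0.38 with 33 of 36 above 0 and 0 called. *Nlrc5*, the transactivator of class I genes (1.55), *Gbp3* (1.09) and *Ifit2* (0.85) were among those that rose, and *H2-Q6*, which is not on the list, rose by 1.56. M36 was the highest gamma library for *Tap1*, *Psmb9* and *Nlrc5*, and without it *Tap1* stood at 0.48 over the remaining 19 libraries (adjusted p = 0.0928). *H2-Q6* has near-identical class I neighbours, so its reads may be shared among them.

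**Figure D5:**
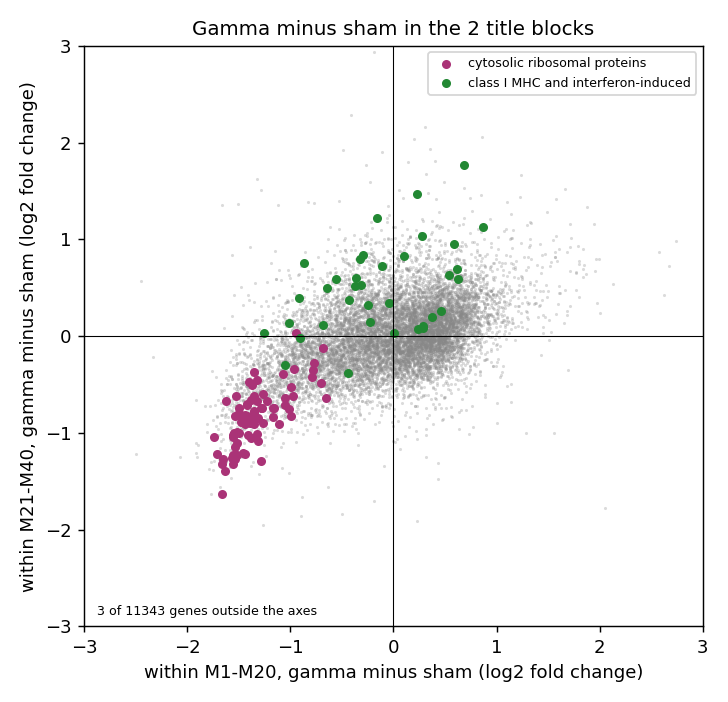
Gamma minus sham log2 fold change within M1-M20 (x axis) and within M21-M40 (y axis), 1 point per gene for 11343 genes, with 2 lists coloured. Ribosomal protein genes lie below 0 in both blocks, apart from 1 gene in M21-M40, and class I and interferon-induced genes lie mostly above 0 in M21-M40 and on both sides of 0 in M1-M20.

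Against the mixed field, given at 50 cGy, gamma males differed in 760 of 11031 genes (6.89%) with block and RIN, 312 higher and 448 lower. The count ranged from 223 without M17 to 952 without M37, and was 424 without M18 and 397 without M19. *Adh1* was lower in gamma there as well (-1.45 ± 0.18, adjusted p = 1.1e-05), and *F13a1*, a coagulation factor subunit made by macrophages (1.06), was higher. Matrix genes were higher in gamma in 12 of 32, oxidative phosphorylation genes lower in 41 of 81 and clock output genes lower in 6 of 11. Both contrasts use the same gamma libraries. The difference between sexes in the gamma effect was tested with the female libraries, and 1479 of 10959 genes (13.5%) had an interaction, or 64 (0.584%) with RIN in the model. The former count was 2737 without M30 and 2488 without M27. *Iigp1* was among the 64, its change being 1.51 greater in males (adjusted p = 0.0293).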

How the data were processed

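The authors aligned reads of poly-A libraries to GRCm39 with STAR 2.7.8a after FastQC 0.11.9 (per the labels' processing notes) and counted reads per gene with HTSeq-count, per their methods, over a custom annotation keeping a fixed stretch at the 3′ end of each gene; the annotation release and strand setting are not given in the sources used here. The deposited values are raw counts, not normalized, for 76 samples. Genes sharing 3′ sequence or overlapping another gene may share reads.

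Here genes with more than 20 counts in every library of a fit were tested with edgeR 4.0.16 (R 4.3.3; quasi-likelihood test, TMM, Benjamini-Hochberg over all tested genes, threshold 0.05). Standard errors are the absolute log2 fold change over the root of F. Alternatives used DESeq2, other filters and covariates, and single libraries left out. Levels are CPM on TMM-scaled totals. RIN was compared by permutation (100000 resamples, exact within blocks). GENCODE vM39 gave symbols for 56323 of 56941 identifiers. Depth was 12580172 to 19058680 counts per library, and the standard errors carry both counting and library-to-library spread. Code was tested on simulated data.

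Genes were named by rule: the 5 lowest p in each direction with block and RIN (since none passed both fits), 7 p53 targets, up to 4 called members per list, and sex and cell type markers. Of these, 1 gene is not reported here. Others were chosen after their values were seen. The members and lists were chosen with earlier results of these data known.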

Additional observations from a re-analysis of the deposited data

Results flagged for a closer look

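Of 204 tests of a group for 1 value apart from the rest, 30 were positive. Chance gives about 1 in 20 for independent, normally distributed values. The CPM values were not checked for this and some genes were chosen after their values were seen, so 30 cannot be set against that rate. The total count of gamma library M37 (17962038) stood above the other gamma libraries. Gamma library M36 stood apart with high *Iigp1* (139.9 CPM), *Tap1* (111 CPM), *Ms4a6b* (70.5 CPM), *Nlrc5* (65.5 CPM), *Itgb7* (58.3 CPM), *Psmb9* (55.9 CPM) and *Ccr2* (26.03 CPM). Gamma library M39 stood apart with high *Hbb-bs* (1547 CPM), *Hba-a1* (1366 CPM), *Nppb* (318 CPM), *Thbs1* (126 CPM) and *Kazald1* (15.5 CPM), and M40 with high *mt-Nd1* (35985 CPM), *Atp5f1e* (877 CPM) and *Cpt1b* (20.5 CPM).

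In sham, M26 stood apart with high *Myl4* (7524 CPM), *Nppb* (2304 CPM), *Stard10* (738 CPM) and *Dbh* (23.4 CPM). M27 had the lowest *mt-Nd1* (21694 CPM) and high *H19* (247 CPM), *Timp3* (73.4 CPM), *Cd163* (30.2 CPM) and *Xrcc3* (15.003 CPM). M30 had high *H2-K1* (504 CPM) and *Mdm2* (73.3 CPM), M8 high *Hba-a1* (434 CPM), M28 high *Irs2* (10.6 CPM) and M29 high *Ddx3y* (102 CPM). The gamma effect differed between title blocks in 2924 genes and between sexes in 1479 genes, both by a test of the interaction.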

How the results depend on the processing

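The count of 3656 genes became 0 with RIN in the model, 0 with libraries of RIN 6 to 8 and 1 in the fit of all male libraries with block and RIN. With block and RIN, 0 became 1 by DESeq2 and 1 in the fit of all male libraries. Within M1-M20, RIN gave 580. Within M21-M40, DESeq2 gave 881. The sex interaction with RIN gave 64. Gamma against the mixed field gave 2147 with gamma and mix males only and 5055 with block but not RIN. Leaving out 1 library gave 3102 to 4512 genes in the main comparison, 0 to 0 with block and RIN, 7268 to 7807 within M1-M20, 0 to 1193 within M21-M40, 2190 to 3630 for the block interaction, 990 to 2737 for the sex interaction, 223 to 952 against the mixed field, 6812 to 7804 for the RIN slope and 2.80 to 3.21 for the RIN difference. Without M26 and M27, chosen after seeing the data, the counts were 4424 and, with block and RIN, 0.

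Among genes called in at least 1 of the fits compared, signs turned with RIN for *Rpl41* (0.0134), *Rpl37a* (0.11), *Rplp1* (0.0703), *Rps15* (0.23), *Ndufa2* (0.0466), *Atp5f1e* (0.046), *Myl2* (0.20), *Myh6* (-0.18), *Psmd1* (-0.17), *Mmp2* (-0.14), *Lmnb1* (-0.069), *Col1a1* (-0.0397), *Mt1* (0.12) and *Pdha1* (-0.18). With block and RIN they turned for *Myl3* (0.21), *Myoz2* (0.00881), *Myl2* (0.33), *Shld1* (0.029), *Lig3* (-0.0235), *Mmp2* (-0.00531) and *Thbs1* (-0.0902). In the fit of all males they turned for *Myl3* (0.0171), *Myh7* (-0.11), *Fabp3* (0.085), *Mdm2* (-0.0933), *Tnfrsf10b* (-0.38), *Xrcc3* (-0.47), *Mdc1* (-0.13), *Cxcl12* (-0.030), *Smad7* (-0.14), *Kdr* (-0.0699), *Cdh5* (-0.00232), *Tek* (-0.17), *C1qa* (0.20) and *Sgk1* (-0.35). They turned within M1-M20 for *Tap1* (-0.16), *B2m* (-0.56), *H2-K1* (-0.33), *Psmb9* (-0.87), *Hba-a1* (-1.66) and *Hbb-bs* (-1.51), and within M21-M40 for *Tcap* (0.20) and *Strn3* (-0.19). Of 100 named genes, those called in neither fit whose sign turned numbered 3 with RIN, 4 with block and RIN (*Bax* at 0.05 among them), 2 in the fit of all males, 5 within M1-M20 (*Cdkn1a* at -0.20 among them) and 2 within M21-M40. The cause was not tested.

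No paired analysis was possible because the labels give no replicate numbers shared by the groups.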
